A study of Mus musculus with 4 samples.

Results

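Transcript abundance of extracellular matrix (ECM) and adhesion genes was described in control osteoblasts (OBs), the cells that lay down bone. These controls were 2 of the 4 cultures of the study, female WT and male WT, chosen because their adenovirus carried GFP without Cre. All 84 wells of a qPCR array were taken from each culture, and 39 of them were given a gene name. The deposited values identify wells by position alone. The names follow from the alphabetical order of the array, were not checked by sequence, and left 45 wells unnamed, which enter the counts and medians.

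OBs were digested with collagenase and EDTA from long bones of 4-day-old male and female mice with *Vegf fl/fl* alleles, grown with the sexes apart and used at passage 1. Every culture therefore carried floxed *Vegf* and was exposed to adenovirus, so WT stands for floxed cells that received no Cre and not for untreated cells. The WT cultures received adenovirus-GFP and kept *Vegf*, and the OBVEGFKO cultures received adenovirus-Cre-GFP, which deletes it. Transduction lasted 6 days in 10% FBS and was followed by 24 h in 1% FBS, so the values describe cells in low serum. From each culture, 500 ng RNA was reverse transcribed and 1 cDNA was measured. With 1 culture per sex and genotype there was no replicate, nothing was tested, and sex and culture cannot be told apart.

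The ECM of bone is built mainly from type I collagen, with non-collagenous proteins that bind mineral, collagen and cells. OBs secrete these proteins, attach to them through integrins, and release both metalloproteinases (MMPs) that cleave the matrix and tissue inhibitors (TIMPs) that restrain the cleavage. Laminins and type IV collagen are the main components of basement membranes, which underlie epithelial and endothelial cells.

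Abundance was read from the cycle threshold (Ct), which falls by 1 cycle when the amount of template doubles. For each well the mean Ct of the WT cultures was subtracted from the median of this mean over the 84 wells, which was 25.75 cycles, to give a log2 abundance relative to the panel median. The scale assumes an efficiency of 2 per cycle in every well. It reads an amplified stretch of each transcript, and no correction for transcript length was made. Neither the yield of reverse transcription nor the efficiency of each primer pair was measured, so that levels of different genes are compared approximately. The median Ct was 25.96 in female WT and 25.53 in male WT cultures, and values between cultures were compared after each culture was centred on its own median.

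The highest Ct was 35. A gene at this value was taken to be undetected, with an upper limit in place of a level. In the female WT culture 7 wells stood at 35, and in the male WT culture 5 wells. The limit was reached in both cultures by 4 wells, *Sele* and the unnamed wells B04, E11 and F07, and in 1 culture by another 4, *Cdh1* in male cells and C11, A08 and C05 in female cells. E11 and F07 were at 35 in the OBVEGFKO cultures as well. The remaining 76 wells, 37 of them named, were under 35 in both WT cultures.

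Some wells stood apart from the rest of the panel and are given here ahead of the results that use them. *Timp1* had a Ct of 30.02 in female WT and 22.39 in male WT cells, against 19.30 in female OBVEGFKO and 20.16 in male OBVEGFKO cells. The median Ct of the panel was lower in OBVEGFKO than in WT cultures, at 21.92 in female and 22.56 in male cells. Centred on the median of each culture, *Timp1* stood at log2 −4.06 and 3.14 in female and male WT cells. In female and male OBVEGFKO cells it stood at 2.62 and 2.40. In the female OBVEGFKO culture, the well of *Lamc1* had a Ct of 13.67, the lowest of that culture, whereas it lay at 28.83 in male OBVEGFKO cells. It was not the only well of that culture to depart from the others. In the same culture *Sele* had a Ct of 15.65 against 35 in the other 3 cultures. The well of *Postn*, next to that of *Sele*, had a Ct of 14.84 there, against 18.33 in male OBVEGFKO cells. The mean WT level of *Timp1* thus describes neither WT culture, and the readings of *Lamc1*, *Sele* and *Postn* affect only comparisons with the female OBVEGFKO culture.

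The WT cultures expressed the panel over a wide range. The mean Ct ran from 16.32 to 35, a span of 18.68 cycles or at least 419991-fold, with quartiles at 22.73 and 30.91 cycles. The high and the low end were unequally filled. A mean Ct under 20 was found in 7 wells, from 20 to 25 in 29, from 25 to 30 in 22, and of 30 or more in 26. Of all 84 wells, 14 (16.7%) were at least 16-fold above the panel median, and 13 of these were among the 39 named. At least 16-fold below it were 28 wells (33.3%), 6 of them named, and 8 of the 28 were at the limit in at least 1 WT culture. The median log2 abundance was 2.61 for the named and −3.88 for the unnamed wells, with 28 named and 14 unnamed wells above the panel median. Because the named wells were chosen with these data known, nothing is read from that difference. At the edges of the 16-fold bands, *Adamts1* (log2 4.11) lay just inside the upper band and *Mmp14* (3.96) just outside it, and the unnamed wells D07 (−4.09) and E02 (−3.88) lay inside and outside the lower band.

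Template was concentrated in few genes. The 10 most abundant wells held 85.4% of the summed template of the panel at the mean Ct, and the top 5, *Col3a1*, *Sparc*, *Spp1*, *Col1a1* and *Fn1*, held 74.0%. The share of the 10 wells was 85.0% in female and 85.4% in male WT cells. By role and over named wells only, fibrillar collagens held 45.03% of the template, matricellular and bone matrix proteins 29.6%, and fibronectin with versican 5.87%. The matrix proteases held 4.06%, the TIMPs 3.15% and the type IV and VI collagens 2.99%. The named integrins held 2.04%, other adhesion molecules 1.15% and the 2 named laminin chains 0.00110%. The 45 unnamed wells held the remaining 6.05%, which may include further members of these groups. Most of the template on the panel was thus that of named fibrillar collagens and secreted matrix proteins. *Col3a1* alone held 36.6% and *Sparc* 17.0%, so these group shares rest largely on these wells, whose primer efficiencies were not measured.

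**Figure D1:**
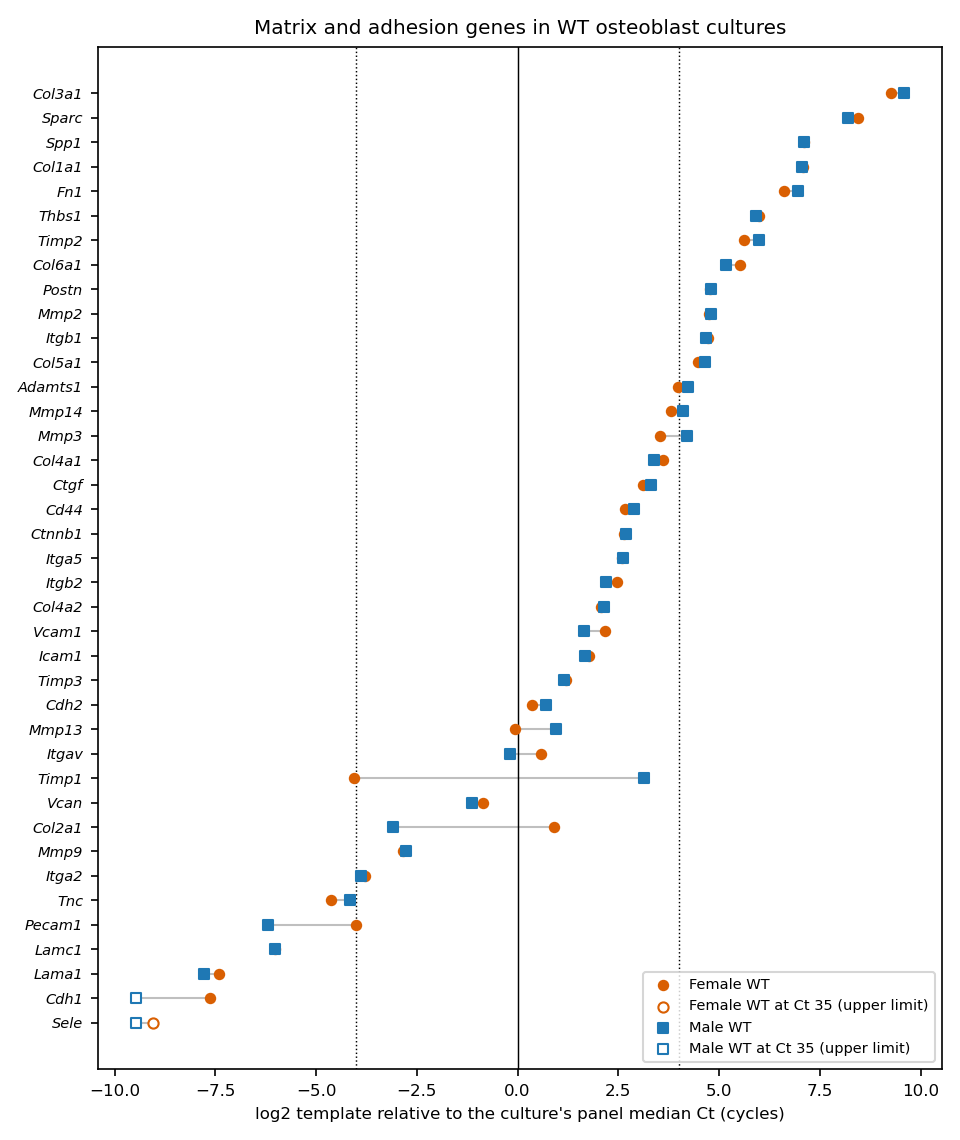
Log2 template of the 39 named genes relative to the panel median Ct of each culture (x axis, in cycles), in order of mean abundance (y axis), in female WT (circles) and male WT (squares) cultures with 1 culture each. Open symbols are wells at a Ct of 35 and are upper limits, dotted lines mark 16-fold above and below the median, and *Timp1*, *Col2a1* and *Pecam1* have the widest gaps between the cultures among genes under 35.

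The fibrillar collagens, which assemble into the tensile fibres of connective tissue, had a median log2 abundance of 5.82 over 4 genes, and 3 of the 4 were at least 16-fold above the panel median, against 16.7% of all wells and 13 of the 39 named. *Col3a1*, the chain of type III collagen, which is common in fibroblasts and early bone matrix, was the most abundant well in both cultures, with a Ct of 16.69 in female and 15.95 in male WT cells. *Col1a1*, a chain of type I collagen and the main protein of bone, followed at rank 4 with Ct values of 18.87 and 18.46. *Col5a1*, whose product takes part in starting type I fibrils, had Ct values of 21.48 and 20.89. The order of these 3 collagens was the same in both cultures. *Col3a1* exceeded *Col1a1* 4.53-fold in female and 5.70-fold in male WT cells, and the ratio was 3.66 in female and 3.20 in male OBVEGFKO cells. *Col1a1* exceeded *Col5a1* 6.11-fold and 5.39-fold in female and male WT cells.

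*Col2a1*, the collagen of cartilage, was the exception in this group. Its Ct was 25.05 in female and 28.63 in male WT cells, so that it lay above the panel median in the female culture (log2 0.91) and below it in the male culture (−3.10). *Col1a1* exceeded it 72.5-fold in female and 1152-fold in male cells. In OBVEGFKO cultures its Ct was 22.19 in female and 24.63 in male cells, again lower in the female culture. Centred on the lower median Ct of each OBVEGFKO culture, it lay below the panel median in female (log2 −0.27) and male cells (−2.07).

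The network and beaded-filament collagens were above the panel median in 3 of 3 genes, against 28 of the 39 named wells. The group median was 3.50. *Col6a1*, a chain of the type VI collagen that surrounds cells, was the highest, with a Ct of 20.44 in female and 20.36 in male WT cells. *Col4a1* and *Col4a2*, which encode the chains of the common type IV collagen trimer and lie next to each other in the mouse genome (RefSeq, GRCm38.p6), were lower. *Col4a1* had Ct values of 22.34 and 22.15. *Col4a2* had Ct values of 23.88 and 23.39. *Col4a1* was thus read 2.91-fold and 2.36-fold above its partner in female and male WT cells, and also above it in OBVEGFKO cells, 3.46-fold and 1.97-fold.

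The 2 named laminin chains were low in both WT cultures. *Lamc1*, a chain shared by most laminins, had a Ct of 31.97 in female and 31.56 in male WT cells. *Lama1*, a chain prominent in embryonic and epithelial basement membranes, had Ct values of 33.36 and 33.31. Both genes were more than 16-fold below the panel median, at log2 −6.02 and −7.59, and *Col4a1* exceeded *Lamc1* 792-fold in female and 680.3-fold in male WT cells. As described above, the *Lamc1* well read very differently in the female OBVEGFKO culture, and what the well amplified was not tested. Other wells of the array may amplify further laminin chains but are unnamed, so that nothing is said of laminins as a family.

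Matricellular and bone matrix proteins, secreted proteins that bind mineral, collagen or cell receptors, had a median log2 abundance of 5.37 over 6 genes, with 4 at least 16-fold above the panel median, against the same 13 of 39. *Sparc*, osteonectin, a collagen-binding glycoprotein abundant in bone, was at rank 2 in both cultures, with a Ct of 17.52 in female and 17.33 in male WT cells. *Spp1*, osteopontin, a phosphoprotein that binds mineral and integrins, was at rank 3 in both, with Ct values of 18.85 and 18.41. *Thbs1*, thrombospondin 1, which binds cells and restrains angiogenesis, had Ct values of 19.96 and 19.61. These 3 genes lay 5.96 or more above the panel median on the log2 scale. *Sparc* exceeded *Spp1* 2.51-fold in female and 2.11-fold in male cells.

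*Postn*, periostin, a protein of the periosteum and of collagen-rich tissue, had a Ct of 21.18 in female and 20.74 in male WT cells, 5.03-fold less template than *Spp1* in each culture. *Ctgf*, connective tissue growth factor, a target of TGFβ and YAP signalling, had Ct values of 22.84 and 22.22. *Tnc*, tenascin C, a glycoprotein of developing and healing tissue, was low, at 30.59 and 29.68 cycles, which is a log2 abundance of −4.39. *Thbs1* exceeded *Tnc* 1585-fold and 1075-fold in female and male cells, so that genes of the same group lay on either side of the panel median by more than 16-fold.

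Fibronectin and versican also lay far apart. *Fn1*, the glycoprotein on which cells assemble early matrix, was at rank 5 in both cultures, with a Ct of 19.36 in female and 18.57 in male WT cells. *Vcan*, a large chondroitin sulphate proteoglycan, had Ct values of 26.82 and 26.67, below the panel median. *Fn1* exceeded *Vcan* 176-fold in female and 274-fold in male cells.

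Among the 6 named matrix proteases, which had a median log2 abundance of 3.91, 5 were above the panel median, against 28 of the 39 named wells. At least 16-fold above it were 2 of the 6, against 14 of the 84 wells (16.7%) and 13 of the 39 named. *Mmp2*, gelatinase A, was the highest, with a Ct of 21.21 in female and 20.72 in male WT cells. *Adamts1*, a protease that cleaves proteoglycans, had Ct values of 21.97 and 21.31. *Mmp14*, the membrane-bound protease that activates MMP2, had Ct values of 22.15 and 21.42. *Mmp2* was thus above *Adamts1* and *Mmp14* in both cultures. *Mmp3*, stromelysin 1, had Ct values of 22.43 and 21.33, below *Mmp14* in template in female and above it in male cells.

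The collagenase *Mmp13*, a product of mature OBs and hypertrophic chondrocytes, stood near the panel median, with a Ct of 26.03 in female and 24.57 in male WT cells. *Mmp3* exceeded it 12.1-fold and 9.45-fold, and the 2 genes lie 3 places apart in the gene order of the mouse genome. *Mmp9*, gelatinase B, which is abundant in osteoclasts and leukocytes, was the lowest of the 6 named proteases, with Ct values of 28.81 and 28.30. *Mmp2* exceeded *Mmp9* 194-fold in female and 191-fold in male cells, so that the gelatinases stood in nearly the same ratio in both.

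Of the 3 named TIMPs, *Timp2*, which inhibits MMPs and takes part in the activation of MMP2, was the most abundant, with a Ct of 20.33 in female and 19.53 in male WT cells. *Timp2* exceeded *Mmp2* 1.84-fold and 2.28-fold in female and male cells. *Timp3*, an inhibitor bound to the matrix, had Ct values of 24.76 and 24.38, and *Timp2* exceeded it 21.6-fold and 28.8-fold. *Timp1*, a soluble inhibitor, was reported above, and its place depended on the culture. *Timp2* exceeded *Timp1* 826-fold in female WT but 7.26-fold in male WT cells, and 6.32-fold and 11.1-fold in female and male OBVEGFKO cells. The female WT culture was therefore the 1 culture of the 4 in which *Timp1* lay below the panel median. The median log2 abundance of the 3 genes was 1.20 in female WT and 3.14 in male WT cells.

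The integrin subunits pair as α and β chains to form receptors for matrix or for other cells. Of 5 named subunits, 4 were above the panel median, against 28 of the 39 named wells. The group median was 2.33. *Itgb1*, the β chain of most collagen, laminin and fibronectin receptors, was the highest, with a Ct of 21.24 in female and 20.85 in male WT cells. *Itga5*, its partner in the fibronectin receptor, had Ct values of 23.36 and 22.91. *Itgav*, the α chain of the receptors for vitronectin and osteopontin, had Ct values of 25.37 and 25.71, close to the panel median. The β1 chain thus stood above both α chains. *Itgb1* exceeded *Itga5* 4.35-fold and 4.17-fold, and *Itgav* 17.5-fold and 29.0-fold, in female and male cells. *Itga2*, the α chain of a collagen receptor, was the lowest of the 5 named subunits, with Ct values of 29.74 and 29.42. *Itga5* exceeded *Itga2* 83.3-fold and 91.1-fold in female and male cells, so that of these α chains that of the fibronectin receptor was the more abundant. *Itgb2*, the β chain of leukocyte integrins, had Ct values of 23.50 and 23.34, above *Itgav* and *Itga2* in both cultures.

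Of the 8 other named adhesion genes, 5 were above the panel median, against 28 of the 39 named wells. Of the 8, 0 were at least 16-fold above the panel median, against 16.7% of all wells. At least 16-fold below it were 3 of the 8, a share near the 33.3% of all wells. *Cd44*, a receptor for hyaluronan and osteopontin, had a Ct of 23.30 in female and 22.65 in male WT cells. *Ctnnb1*, β-catenin, which links cadherins to actin and carries Wnt signals, had Ct values of 23.31 and 22.83. *Cd44* and *Ctnnb1* were thus read at nearly the same level in each culture, 1.01-fold and 1.13-fold apart. *Vcam1*, a ligand of leukocyte integrins that stromal cells also carry, had Ct values of 23.80 and 23.89. *Icam1*, a ligand of the β2 integrins, had Ct values of 24.20 and 23.86, lower in template than *Vcam1* in female but not in male cells. These 4 genes formed a middle tier, with log2 abundances from 1.72 to 2.77. *Cdh2*, N-cadherin, the cadherin of mesenchymal cells including OBs, had Ct values of 25.60 and 24.83, near the panel median. *Cdh1*, E-cadherin, the cadherin of epithelia, had a Ct of 33.59 in female cells and was at the limit in male cells, so that *Cdh2* exceeded it 254-fold and at least 1152-fold.

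Cell type markers were set beside the label of the cultures. The marker lists were chosen with earlier results of these data known, so their shares describe the cultures and are not a check of the label. Of the 6 OB markers *Col1a1*, *Spp1*, *Sparc*, *Postn*, *Mmp13* and *Cdh2*, 5 were above the panel median in female WT and 6 in male WT cells. Together the 6 OB markers held 35.7% and 30.5% of the summed template in female and male WT cells, led by *Sparc* at 19.0% and 14.99%. In OBVEGFKO cultures they held 28.3% in female cells, of which the *Postn* well described above gave 9.39% and the other markers 18.95%, and 33.7% in male cells, led by *Sparc* at 14.99%. The *Lamc1* well held 21.1% of the female OBVEGFKO template, which lowers the share of every other well there. Above the panel median were 4 of these markers in female OBVEGFKO cells, with *Cdh2* and *Mmp13* at the median, and 6 in male OBVEGFKO cells. Fibroblasts express several of these genes, so the list does not tell OBs from fibroblasts.

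Markers of other cells held less template in sum. The 6 genes *Cdh1*, *Pecam1*, *Sele*, *Itgb2*, *Mmp9* and *Col2a1* together held 0.416% of the template in female WT and 0.247% in male WT cells, and 2 and 1 of them were above the panel median. The corresponding shares were 5.81% in female OBVEGFKO cells, of which *Sele* gave 5.36%, and 0.475% in male OBVEGFKO cells. *Sele*, E-selectin of activated endothelium, was at the limit in both WT cultures. *Pecam1*, a marker of endothelial cells and some leukocytes, had a Ct of 29.98 in female and 31.72 in male WT cells, and *Col1a1* exceeded it 2210.3-fold and 9809.7-fold. At the mean Ct, *Cdh1*, *Pecam1* and *Sele*, the epithelial and endothelial genes of this list, were thus at least 16-fold below the panel median. The adhesion genes *Vcam1* and *Icam1*, which were not on the list, were above the panel median in both WT cultures.

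Of the 6 listed markers of other cells, the leukocyte gene *Itgb2* was above the panel median in both WT cultures. There it held 0.302% and 0.233% of the template, the most of these 6 genes. It was more abundant than the OB markers *Cdh2*, at 0.0704% and 0.0828%, and *Mmp13*, at 0.0522% and 0.0992%, in both cultures. *Col1a1* exceeded *Itgb2* 24.8-fold in female and 29.4-fold in male cells. *Mmp9*, found in osteoclasts and leukocytes, was lower, and *Itgb2* exceeded it 39.7-fold and 31.1-fold. The chondrocyte marker *Col2a1* was above the panel median, and above *Cdh2* and *Mmp13*, in the female culture. Whether these readings came from other cells was not tested, and in bulk RNA fewer cells of a type and less RNA per cell cannot be told apart.

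The WT cultures ordered the panel similarly. Over the 76 wells under 35 in both, which share the same pair of cDNAs and are not replicates, Ct values of female and male cells had a Pearson r of 0.969 and a Spearman rho of 0.968, and 0.987 for each over the 75 wells without *Timp1*. Of the 84 wells, 74 kept their rank within 5 places. Ct was lower in male cells in 68 wells and in female cells in 12, with a median difference of 0.41 cycles that centring largely removes. After centring, the robust SD of the difference between the cultures was 0.452 cycles over all 84 wells, those at 35 included, and the plain SD was 1.08 with *Timp1* and 0.725 without it. The robust SD was 0.400 over the 76 wells under 35 and 0.326 over wells with a mean Ct of at most 30. By level, it was 0.371 in the 7 wells with a mean Ct under 20, 0.297 from 20 to 25, 0.356 from 25 to 30, and 0.912 in the 18 measured wells of 30 or more. Low genes therefore scattered more by the robust SD, and this spread also contains any difference between the sexes. The largest single difference was not among them. It was 7.2 cycles from 25 to 30, for *Timp1*, against 2.17 in the measured wells of 30 or more, for *Pecam1*.

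**Figure D2:**
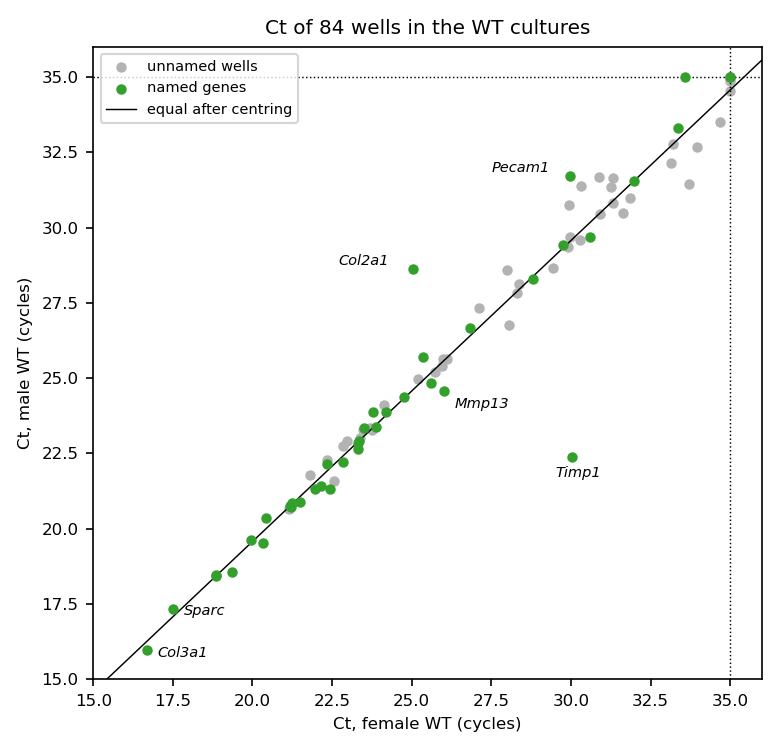
Ct in cycles of the 84 wells in female WT (x axis) and male WT (y axis) cultures, 1 culture each, with named genes in green, unnamed wells in grey, and dotted lines at the limit of 35. The solid line marks equal template after centring on each panel median, and *Timp1*, *Col2a1* and *Pecam1* lie farthest from it among wells under 35.

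After centring, 3 of the 76 wells (3.95%) were at least 2-fold higher in male WT cells, namely *Timp1* (log2 7.20), *Mmp13* (1.03) and the unnamed well B09 (1.84). At least 2-fold lower were 6 wells (7.89%), with *Col2a1* (−4.01) and *Pecam1* (−2.17) named. The other 33 of the 37 named genes under 35 were within 2-fold. Only *Timp1*, *Col2a1* and *Pecam1* were at least 4-fold apart. Of the structural matrix genes, the fibrillar collagens *Col3a1* (0.31), *Col1a1* (−0.02) and *Col5a1* (0.16) differed by less than the robust SD of 0.452. So did *Sparc* (−0.24), *Spp1* (0.01), *Fn1* (0.36) and *Col6a1* (−0.35), whereas *Tnc* (0.48) did not. *Fn1* and *Col6a1* exceeded the 0.326 of wells with a mean Ct of at most 30. The robust SD was calculated from these same differences, so most wells fall under it, and agreement between the sexes was not tested.

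Neighbours in the order of the 39 genes were often close in level. Among 38 pairs of neighbours the median gap was 0.405 on the log2 scale. In 20 pairs both cultures placed the higher gene above both values of the lower gene, and in 18 the values overlapped. In 11 of the 20 the gap also exceeded the robust SD of 0.452 cycles, a criterion added after the values were seen. The steps from *Col3a1* to *Sparc* (1.11) and from *Sparc* to *Spp1* (1.21) were among the 11. *Spp1* and *Col1a1* were among the 20, but their gap of 0.035 was under the robust SD.

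The WT order was compared with the OBVEGFKO cultures to see whether the leading genes were shared. Of the 10 most abundant wells, 9 were also among the 10 leading wells of the OBVEGFKO mean, where *Itgb1* took the place of the unnamed well B11. *Postn* was among the 9 through its female OBVEGFKO reading, at rank 3, and was at rank 14 in male OBVEGFKO cells. Without the wells of *Lamc1*, *Sele* and *Postn*, 9 of the 10 leading wells were again shared. In female OBVEGFKO cells alone 8 of the 10 were shared, with *Lamc1* and *Sele* in and B11 and *Col6a1* out. In male OBVEGFKO cells 9 were shared, with *Itgb1* in and *Postn* out. Over the same 76 wells, which were under 35 in all 4 cultures, the Spearman rho between the Ct of WT and OBVEGFKO cells was 0.901 in female and 0.992 in male cells, as a description of these cDNAs. Over the 74 wells without *Lamc1* and *Timp1* it was 0.988 in female and 0.992 in male cells. In each sex, 69 of the 76 wells changed to within 2-fold of the median change in centred Ct. *Col3a1* and *Sparc* were at ranks 1 and 2 in both WT cultures and in male OBVEGFKO cells, and at ranks 2 and 4 in female OBVEGFKO cells.

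**Figure D3:**
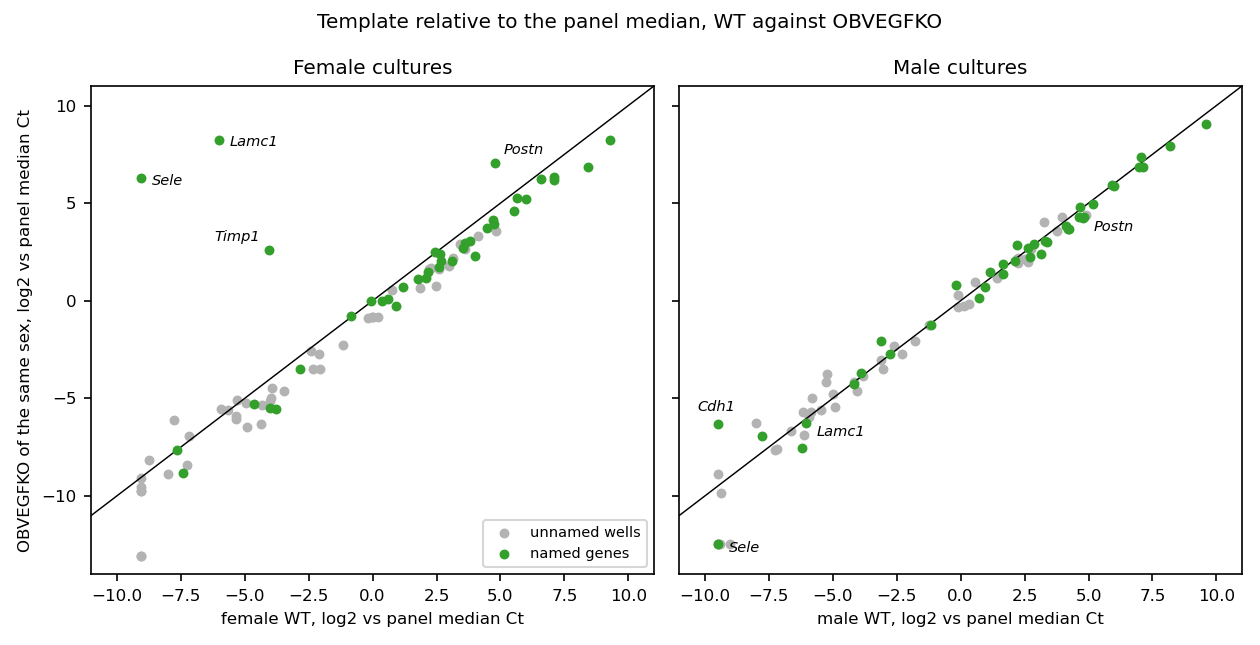
Log2 template relative to the panel median Ct in WT (x axis) and OBVEGFKO (y axis) cultures of the same sex, for 84 wells and 1 culture per group, with named genes in green, unnamed wells in grey and the line of equal values. In the female panel *Lamc1*, *Sele* and *Timp1* lie far above the line, and 69 of the 76 wells under 35 lie within 2-fold of the median change in each panel.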

How the data were processed

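Primary OBs were profiled by SYBR Green qPCR on a StepOnePlus with an RT² Profiler array of ECM and adhesion genes. Per culture, the authors deposited 84 Ct values in cycles, to 2 decimals and before any normalisation, for 4 cultures. The threshold, the baseline and the treatment of undetermined wells are not stated in the sources used here. A further deposited table holds linear ratios between cultures for 4 comparisons, normalised to housekeeping genes by the ΔΔCt method. These are their own comparisons and were not used. Housekeeping wells and *Vegf* were not analysed here, and columns of per-sample values left out numbered 0.

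From the deposited Ct values, log2 abundance, centred Ct, folds between wells and shares of summed template (efficiency per cycle raised to minus Ct, over its sum on the panel) were calculated at an efficiency of 2. The robust SD is the scaled median absolute deviation. No test was made, because each group is 1 culture. The wells named are the 39 that the alphabetical layout of the array identifies. All 39 symbols were found in the RefSeq gene table of GRCm38.p6, *Ctgf* through a synonym. An unnamed well is given by position where it was among the 10 most abundant, at 35 in a WT culture or at least 4-fold apart between WT cultures. The wells D07 and E02 at the edge of a band, and B09, were added after their values were seen. The members and lists were chosen with earlier results of these data known.

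Alternatives were each WT culture alone, centring before averaging, the median over wells under 35, an efficiency of 1.9, other limits, bands and fold thresholds, no centring, and another SD. The SD without *Timp1* and the comparisons with OBVEGFKO without *Lamc1*, *Timp1*, *Sele* or *Postn* were added after seeing the data. The calculations were tested on simulated panels and made with Python 3.11.15, numpy 2.4.6, pandas 2.3.3 and matplotlib 3.10.9. The simulated panels were built from the WT values, with less scatter between cultures than the data and no outlying wells, so they test the arithmetic only.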

Additional observations from a re-analysis of the deposited data

How the results depend on the processing

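No paired test was made, and cultures were set side by side by sex as a description. The precision of a Ct cannot be had from 1 reading per well, and primer efficiencies were not measured. With a Ct of 33 or more read as the limit, 14 wells in place of 8 were at it in at least 1 WT culture. With a 32-fold band, 8 wells in place of 14 were above it. The spread between the WT cultures was 1.08 cycles as a plain SD, and 0.725 without *Timp1*, in place of 0.452 as a robust SD. At least 1.5-fold and 4-fold apart were 17 and 3 wells, in place of 9 at 2-fold. The share of the 10 leading wells was 82.2% at an efficiency of 1.9 in place of 85.4%. Centring each culture first could not move the 39 abundances, because the culture medians average to the median of the mean Ct. Of the 39, 31 kept within the robust SD at an efficiency of 1.9, and 34 with either WT culture alone. The sign changed for *Col2a1* and *Mmp13* in the female culture alone, and for *Itgav* and *Timp1* in the male culture alone. The median over wells under 35 lowered all 39 by 0.49, and *Itgav* and *Mmp13* fell below it. *Adamts1* left the upper band with the female culture alone, at an efficiency of 1.9 and with that median, *Mmp14* and *Mmp3* entered it with the male culture alone, and *Itga2* entered the lower band with that median and *Timp1* with the female culture alone.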
